A study of Mus musculus with 4 samples.

Results

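Endothelial cells line the blood vessels of the bone marrow, and single-cell RNA sequencing of sorted Td+ endosteal bone marrow cells captured 505 of them among 24084 cells. They were chosen by their own transcripts. A barcode was kept when it held 200 to 6000 genes and at most 5% of its UMIs (unique molecular identifiers, 1 per captured RNA molecule) from mitochondrial genes. It was counted as endothelial when at least 3 of the 5 genes Cdh5, Pecam1, Emcn, Flt1 and Kdr had a UMI and Ptprc, the gene of the leukocyte surface protein CD45, had none. All mice were male Col2:Td mice (Col2-Cre with Rosa26 lsl-tdTomato, in which Cre driven by Col2 switches on the red reporter) on the B6SJL/F1 strain. The 1-month-old library was made from 2 pooled mice, and the 1.5-, 3- and 16-month-old libraries from 3 pooled mice each. All cells came from digested long bone fragments after the central marrow had been flushed out, and all were sorted for Td, or for the brightest 1% where no Td peak was visible, so the endothelial cells are those that passed a gate set for mesenchymal cells. There is 1 library per age. No replicate error could be measured, no test between ages was made, and the 95% intervals given below cover counting error only.

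The marrow vasculature has branches with different tasks. Arteries and arterioles bring blood in under pressure, and their endothelium is held in the arterial state by Notch signalling and by factors such as Sox17. Sinusoids are wide, thin-walled and leaky vessels through which blood cells leave the marrow, and their endothelium carries scavenger receptors such as Stab2 and the VEGF-C receptor Flt4 (VEGFR3). Both kinds of vessel give signals to the blood stem cells around them.

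The 5 marker genes, which the rule itself used and which are therefore given as a description, identified the cells. Cdh5, the VE-cadherin of endothelial junctions (chr8:104101625-104144511, plus strand, GRCm38), was at 479, 369.7, 956 and 825 CPM at 1, 1.5, 3 and 16 months, where CPM is the number of UMIs of a gene per 1000000 UMIs summed over the cells of 1 library. All values below follow this order of ages. Pecam1, the adhesion molecule CD31 (chr11:106654217-106750628, minus strand), was at 478, 379, 644 and 574 CPM, and Emcn, the surface sialomucin endomucin (chr3:137341067-137432185, plus strand), at 850.1, 549.8, 525 and 402 CPM. The VEGF receptors Flt1 (chr5:147561604-147726011, minus strand) and Kdr (chr5:75932827-75978458, minus strand) were at 537, 417, 735 and 762 CPM and at 345, 265, 821 and 815 CPM. In all other cells of the same libraries none of the 5 genes exceeded 11.8 CPM. Of the members, 102 of 137, 19 of 34, 173 of 240 and 82 of 94 had a UMI of all 5 genes.

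Genes that the rule did not use gave the same label. Of 18 pan-endothelial genes on a fixed list, 18 were at least 2-fold higher in endothelial cells than in all other cells in each library. Plvap, a protein of the diaphragms of fenestrated endothelium, was at 1254, 1014, 1176 and 1107 CPM, against 8.24, 3.23, 6.51 and 3 CPM in the other cells. Cldn5, a tight junction protein, was at 849, 850.0, 1180.0 and 1220.3 CPM, against 5.41, 0.5, 5.48 and 2.16 CPM. Egfl7, a secreted endothelial factor, was at 1016, 657, 1177 and 653 CPM, against 16.6, 3.85, 12 and 3.48 CPM. Eng, a co-receptor of TGF-beta ligands, and Tie1, an orphan receptor, were at 620.5, 351, 619 and 636 CPM and at 173, 167, 208 and 203 CPM. The lowest of the list at 1 month was the transcription factor Sox18 at 8.67, 31.6, 32 and 152 CPM.

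**Figure D1:**
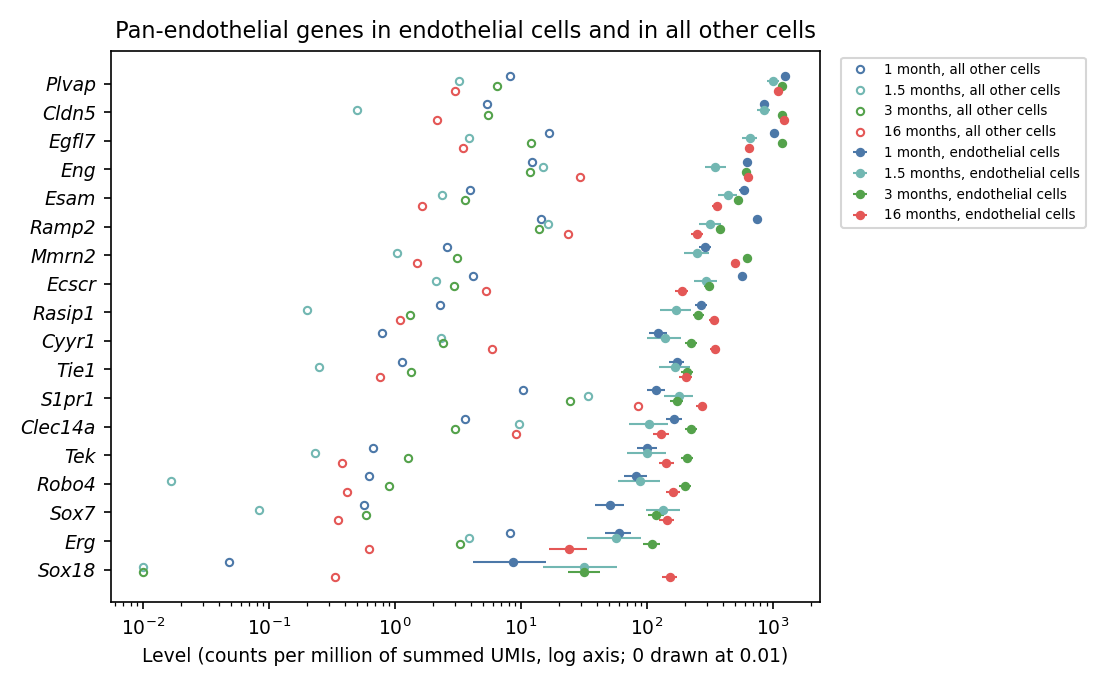
Levels of the 18 pan-endothelial genes (CPM of summed UMIs, log axis, 0 drawn at 0.01) in endothelial cells (filled points with 95% Poisson intervals) and in all other cells (open points), coloured by library. Every filled point lies above the open point of its library, with Plvap at 1254, 1014, 1176 and 1107 CPM against 8.24, 3.23, 6.51 and 3 CPM.

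Among 1970 genes with at least 50 CPM in endothelial cells of every library, 285 (14.5%) were at least 2-fold higher than in all other cells in all 4 libraries. The gene with the largest of these ratios, taken at its smallest over the libraries, was Gpihbp1 (chr15:75596628-75599481, plus strand), which carries lipoprotein lipase across the capillary wall. It was at 653, 389, 721 and 432 CPM in endothelial cells and at 3.95, 0.45, 1.83 and 0.812 CPM in the others, a ratio of at least 165 in each library. Flt4, Cldn5, Tie1, Aplnr, Ushbp1, Plvap, Tek, Esam, She, Sox17, Gpr182, Robo4, Fam167b and Podxl followed, with smallest ratios of 161 down to 121. Aplnr, the apelin receptor, was at 187, 180.1, 163 and 67.1 CPM, and Tek, the angiopoietin receptor Tie2, at 101, 101, 209.8 and 143 CPM. Gpr182, a receptor on the surface of sinusoidal and lymphatic endothelium, was at 64.1, 101, 186 and 174 CPM, and Robo4, a guidance receptor of endothelium, at 82.3, 88.5, 202 and 163 CPM. None of the 15 exceeded 8.24 CPM in the other cells of any library. These ratios follow in part from the rule, which picked the cells with such transcripts.

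Promoters of 2 of the markers are shown because VEGF receptor genes carry sites of the ETS family, to which the endothelial factor Erg belongs. The 250 bases before the RefSeq start of each gene (GRCm38.p6) are printed 5′ to 3′ on the strand of the gene, with each match to the letters GGAAGT, on either strand, in capitals. The window of Kdr is chr5:75978456-75978705, minus strand, and that of Flt1 is chr5:147726012-147726261, minus strand.
Kdr: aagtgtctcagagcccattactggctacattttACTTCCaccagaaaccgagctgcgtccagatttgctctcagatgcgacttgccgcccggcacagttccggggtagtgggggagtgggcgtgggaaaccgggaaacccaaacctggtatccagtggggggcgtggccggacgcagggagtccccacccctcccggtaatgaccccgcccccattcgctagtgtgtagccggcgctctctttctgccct
Flt1: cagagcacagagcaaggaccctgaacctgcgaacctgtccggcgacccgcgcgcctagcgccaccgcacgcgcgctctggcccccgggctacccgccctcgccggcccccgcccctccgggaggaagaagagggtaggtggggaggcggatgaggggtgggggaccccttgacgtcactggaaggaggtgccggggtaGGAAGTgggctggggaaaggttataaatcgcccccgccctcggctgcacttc
The match in Kdr starts 217 bases and that in Flt1 52 bases before the start. The same windows of Flt4, the other VEGF receptor gene, and of the marker Emcn hold no match. Of the 5 markers and 15 leading genes, 11 have a promoter in the RefSeq table and 4 of these (36.4%) hold the letters, against 4165 of 17894 (23.3%) of all promoters of this length. None of 9 arterial and 2 of 8 sinusoidal genes with a promoter hold them.

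Endothelial cells made up 137 of 8308 cells at 1 month (1.65%, exact 95% interval 1.39 to 1.95), 34 of 5453 at 1.5 months (0.624%, 0.432 to 0.870), 240 of 4180 at 3 months (5.74%, 5.06 to 6.49) and 94 of 6143 at 16 months (1.53%, 1.24 to 1.87). The share at 3 months was thus the highest and that at 1.5 months the lowest, and the intervals at 1 and 16 months overlap. These are shares of cells that passed a Td gate, which the labels do not give for each library, so they are no measure of how many vessels the marrow held. The filter weighed on the libraries unequally. Of all barcodes with 3 markers and no Ptprc, it removed 0 of 137, 0 of 34, 10 of 250 and 178 of 272, so that at 16 months 65.4% of such barcodes were lost, 157 of them over the mitochondrial limit and 32 over the gene limit. With the mitochondrial limit at 10% the share at 16 months was 2.63%, and at 30% it was 2.72%.

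**Figure D2:**
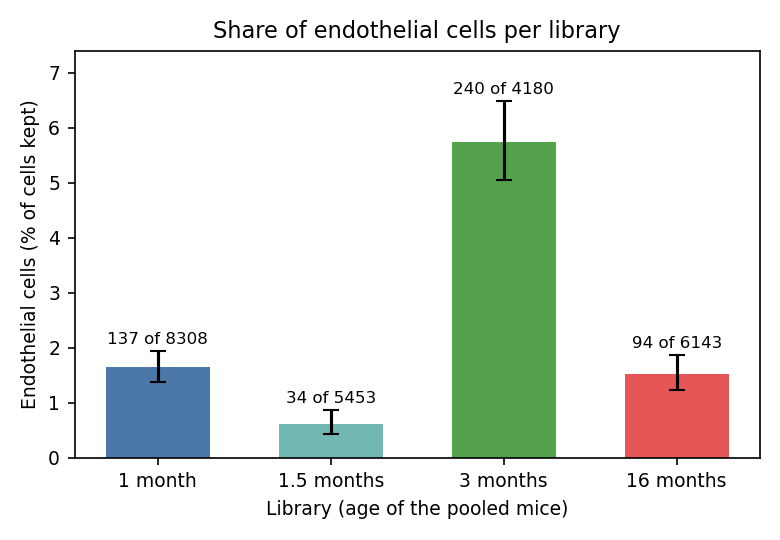
Endothelial cells as a percentage of the cells kept in each library (bars start at 0, whiskers are exact 95% intervals, numbers give cells). The 3-month bar stands at 5.74%, above the intervals of the other 3 libraries, and the 1.5-month bar at 0.624%, below them.

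Cells on both sides of the threshold of the rule were counted, beside 137, 34, 240 and 94 members. Cells with no Ptprc and exactly 2 markers numbered 34, 6, 14 and 31, and those with exactly 3 numbered 5, 5, 17 and 6. The cells just outside had Cldn5 at 30.7, 0, 197 and 37.5 CPM, and those just inside at 562, 389, 935 and 1537 CPM. The cells just inside carried neutrophil genes at a summed 132319, 225, 58691 and 629 CPM, against 27002, 265, 5552 and 188 CPM in all members. At 3 months the cells just outside held the platelet factor Pf4 at 23017 CPM, and in the members it was at 44.3 CPM. The Ptprc limit took out 48, 0, 6 and 2 cells with 3 or more markers. At 1 month these 48 carried a median of 2 Ptprc UMIs and neutrophil genes at a summed 113575 CPM.

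Depth and cell mixture differed between the libraries and bear on all that follows. The members held a median of 7185, 8917.5, 5683 and 16193.5 UMIs, against 10356, 9628, 6317 and 9648 in all other cells. The 16-month table lists 31054 genes and the others 27999, of which the 26600 in all 4 were used, and its barcodes come from another set (1 or 2 shared with each younger library, which share 30 to 61 among themselves). No endothelial barcode was shared. Whether a difference of the 16-month library belongs to age or to this processing cannot be told apart. Transcripts of other cells were present in the members. At least 4 of the 5 stromal genes Cxcl12, Lepr, Adipoq, Ebf3 and Kitl had a UMI in 4, 20, 28 and 46 members (2.92, 58.8, 11.7 and 48.9%), at least 3 of 6 mural genes in 11, 13, 89 and 63, and the 6 neutrophil genes took 2.02, 0.0246, 0.375 and 0.0226% of a member's UMIs on average. Hemoglobin and other erythroid genes summed to 35501, 338, 508 and 9346 CPM, chondrocyte genes to 1084, 7799, 925 and 42.5 CPM and osteoblast genes to 6207, 5523, 5658 and 4289 CPM. Macrophage genes other than Mrc1 stayed at 70.2 CPM or less, megakaryocyte genes at 59.8 CPM or less, and the B lineage genes other than Ebf1, which stroma also expresses, at 42.5 CPM or less. The part of this RNA in the results below was not tested, except where values without such cells are given.

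Arterial genes were read from a fixed list of 12. Gja4 (chr4:127311421-127314039, minus strand), the gap junction protein connexin 37 of arterial endothelium, was at 276 (246 to 308), 47.4 (26.5 to 78.2), 98.8 (83.4 to 116) and 56.8 (45.3 to 70.5) CPM. It was highest at 1 month, and the intervals of the other 3 libraries lie below that of 1 month. Stmn2, which encodes a microtubule regulator, was at 278 (249 to 310.3), 60 (36.1 to 93.8), 59.3 (47.5 to 73.1) and 54.8 (43.4 to 68.2) CPM, with the same order of 1 month above the rest. Gja5, connexin 40, was at 73.7, 3.16, 17 and 9.59 CPM, and Unc5b, a netrin receptor of arterial and tip endothelium, at 128, 25.3, 40.2 and 53.4 CPM. Both were again highest at 1 month, and Gja5 had a single UMI at 1.5 months. In all other cells Unc5b was at 34.4, 56.1, 36.3 and 51.3 CPM, so it separated the members at 1 month alone. Other arterial genes had another course. Sox17, a transcription factor needed for arterial identity, was at 120.5 (101 to 142), 53.7 (31.3 to 86), 117 (100.3 to 136) and 101 (85.1 to 118) CPM, and its intervals at 1, 3 and 16 months overlap. The Notch ligand Dll4 was at 65.9, 47.4, 77 and 114 CPM, Efnb2, the ephrin that marks arterial against venous endothelium, at 76.3, 41.1, 80.4 and 116 CPM, and Sema3g, a secreted semaphorin, at 39, 19, 62.7 and 75.3 CPM. Dll4 and Efnb2 were highest at 16 months, and the intervals of Sema3g at 3 and 16 months (50.5 to 76.9 and 61.9 to 90.8) overlap. Cells called sinusoidal-leaning below, by a score that uses these genes, held Dll4 at 30.3, 53.7, 59.4 and 110 CPM. In them Efnb2 was at 37.4, 24.4, 49.3 and 101 CPM and Gja4 at 0, 0, 18.3 and 15.3 CPM. The 16-month levels of Dll4 and Efnb2 are thus not those of arterial-leaning cells alone. The Notch target Hey1 stood at 50.3, 37.9, 21.1 and 11.6 CPM and the kinase Bmx at 23.4, 0, 8.18 and 12.3 CPM. Fbln5 and Vegfc, at 139, 392, 188 and 473 CPM and 65, 63.2, 31.3 and 117 CPM, do not separate the cells, since at 16 months both were higher in all other cells (794 and 230 CPM).

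Sinusoidal genes were read from another list of 12. Stab2 (chr10:86841198-87008025, minus strand), the scavenger receptor that takes up hyaluronan, was at 52 (39.7 to 66.9), 174 (131 to 226), 433 (399.6 to 468) and 397 (366 to 431) CPM. Stab1, its relative, was at 103 (85.4 to 123), 167 (125 to 219), 391 (359.7 to 424) and 407 (375 to 442) CPM. Both were lowest at 1 month and higher at 3 and 16 months, where their intervals overlap. Flt4 (chr11:49609263-49652739, plus strand) was at 86.7 (70.5 to 105), 126 (90.3 to 172), 209.8 (187 to 235) and 491 (456 to 528) CPM, each library above the one before. Il6st, the shared receptor subunit gp130, was at 113, 348, 918 and 1517 CPM, Tfpi, the inhibitor of tissue factor, at 359.6, 591, 1258 and 1858 CPM, and Lrg1, a secreted glycoprotein, at 605, 1144, 1773 and 1064 CPM. Adamts5, a protease of the extracellular matrix, was at 105, 316, 638 and 949.8 CPM, Gpm6a, a membrane glycoprotein, at 33.8, 94.8, 215 and 243 CPM, and Dnase1l3, a secreted nuclease, at 19.9, 69.5, 193 and 327 CPM. All 6 were lowest at 1 month. Vcam1, which holds blood cells to the vessel wall, and the transcription factor Maf were at 97.9, 622, 488 and 985 CPM and 48.5, 145, 192 and 418 CPM, but Vcam1 was higher still, at 1239 CPM, in the other cells at 16 months. C1qtnf9 had few UMIs, at 24.3, 19, 9.54 and 1.37 CPM, and was not lowest at 1 month.

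**Figure D3:**
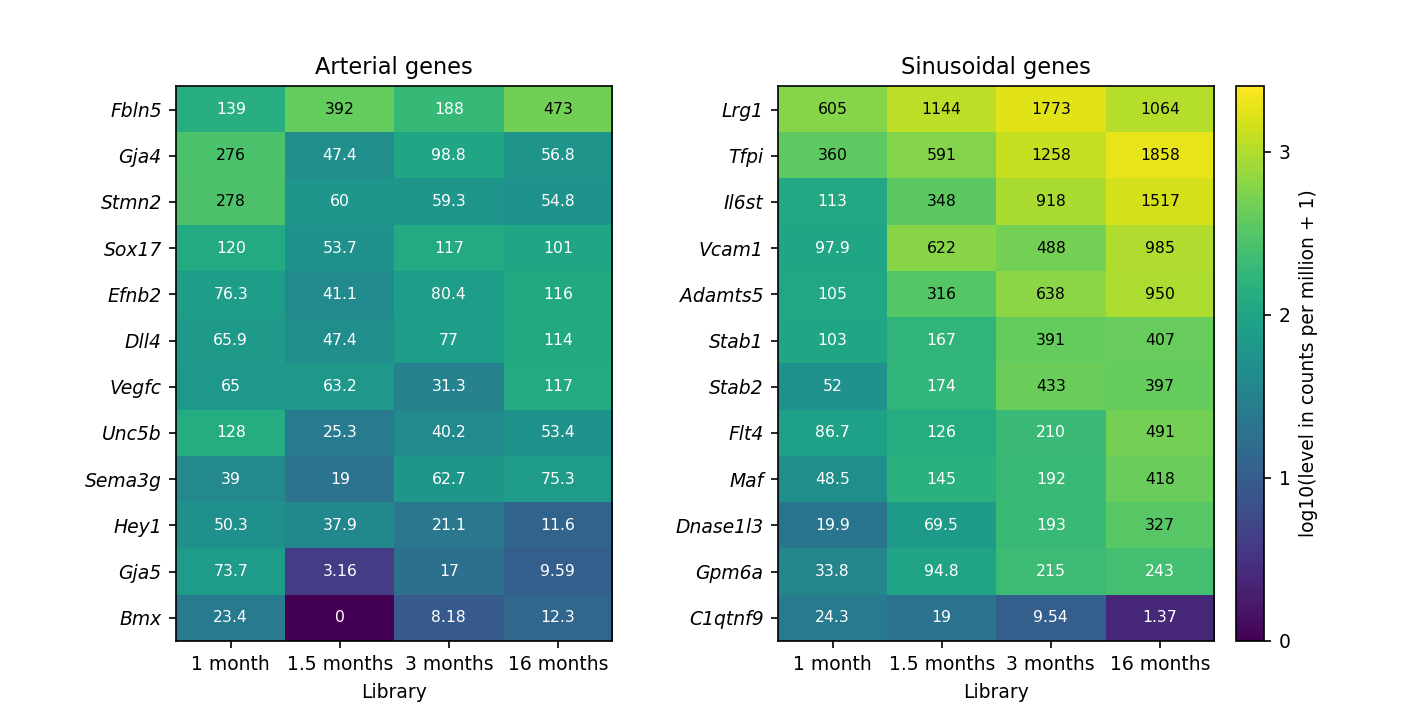
Level of each gene of the arterial and the sinusoidal list (rows, sorted by mean level) in endothelial cells of each library (columns), with the CPM printed in each cell and coloured on a log10 scale. Gja4 and Stmn2 are highest at 1 month (276 and 278 CPM), and all sinusoidal genes except C1qtnf9 are lowest there.

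The 12 arterial genes summed to 1335 (1269 to 1403), 790.0 (695 to 894), 801 (756 to 848) and 1196 (1140.2 to 1253) CPM and the 12 sinusoidal genes to 1648 (1575 to 1724), 3817 (3605 to 4039), 6719.5 (6588 to 6853) and 8659 (8509 to 8812) CPM. Of the UMIs of both lists, the arterial genes held 44.7% (43.1 to 46.4), 17.1% (15.2 to 19.2), 10.7% (10.1 to 11.2) and 12.1% (11.6 to 12.7). The 1-month cells thus had the largest arterial share, and the intervals of 3 and 16 months do not overlap. The order of these 2 ages turned round with other cells. Without the members that carried at least 4 stromal genes the share was 28.0% at 1.5 months, 10.3% at 3 months and 9.16% at 16 months, and with mitochondrial UMIs up to 30% and no upper limit on genes it was 10.6% and 9.56% at 3 and 16 months. In all other cells the sinusoidal list summed to 311, 444, 524 and 1910.1 CPM and the arterial list to 105, 365, 188 and 1107 CPM. The sums include Fbln5, Vegfc and Vcam1, which at 16 months were higher in all other cells than in the members. Fbln5 gave the most UMIs of the arterial list at 1.5, 3 and 16 months. The share without these genes is not given here, so the arterial shares at these ages are not a measure of arterial cells alone.

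Each cell was also read alone. With every cell thinned to 3000 UMIs, a cell was said to lean arterial or sinusoidal when it had a UMI of more genes of that list. Of 137, 34, 223 and 87 cells of this depth (17 cells at 3 months and 7 at 16 months were shallower), 43 (31.4%, 23.7 to 39.9), 5 (14.7%, 4.95 to 31.1), 37 (16.6%, 12 to 22.1) and 11 (12.6%, 6.48 to 21.5) leaned arterial. Another 75 (54.7%), 23 (67.6%), 177 (79.4%) and 75 (86.2%) leaned sinusoidal. The interval at 1 month lies above those of 3 and 16 months, and at 1.5 months the interval is wide, with 34 cells. For a comparison without doublets the cells were thinned anew, and although 0 members at 16 months were called doublets, 14 in place of 11 then leaned arterial. The interval at 16 months (9.09 to 25.5) then overlapped that at 1 month (22.9 to 39.1), so their separation depends on the random draw of UMIs. Among the 14 cells at 1.5 months with fewer than 4 stromal genes, 35.7% leaned arterial. The classes are ranges of a score, and 47, 11, 27 and 9 cells lay within 1 gene of equality. Neutrophils of the same libraries had a mean of 0.164, 0.385, 0.214 and 0.405 arterial and 0.809, 0.885, 1.05 and 1.08 sinusoidal genes, against 1.93, 1.59, 1.55 and 2.08 arterial and 2.63, 4.59, 6.21 and 7.37 sinusoidal genes in the endothelial cells. The sinusoidal gene Lrg1, which neutrophils also make, was at 390.1, 322, 481 and 342 CPM in them, so their sinusoidal number is not a level of free RNA alone.

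Gja4 and Stab2 were rarely found in the same cell. Among the thinned cells Gja4 was found in 33, 2, 32 and 12 cells and Stab2 in 17, 8, 105 and 45, and both together in 0, 0, 3 and 1. At 3 months 9.38% of the cells with Gja4 had Stab2, against 53.4% of those without Gja4. Sox17 was found in 18 of the 33, 1 of the 2, 14 of the 32 and 7 of the 12 cells with Gja4. For Sox17 this was less clear, since Stab2 was in 7 of 43 cells with Sox17 at 3 months (16.3%, against 54.4% of those without) and in 9 of 20 at 16 months (45%, against 53.7%). Cells with at least 3 genes of each list numbered 6, 2, 11 and 22, which at 16 months was 22 of 87 cells. Spearman's rho between both numbers of genes was -0.36, -0.28, -0.57 and -0.48 across the cells of a library, which share their library and depth and are not replicates.

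**Figure D4:**
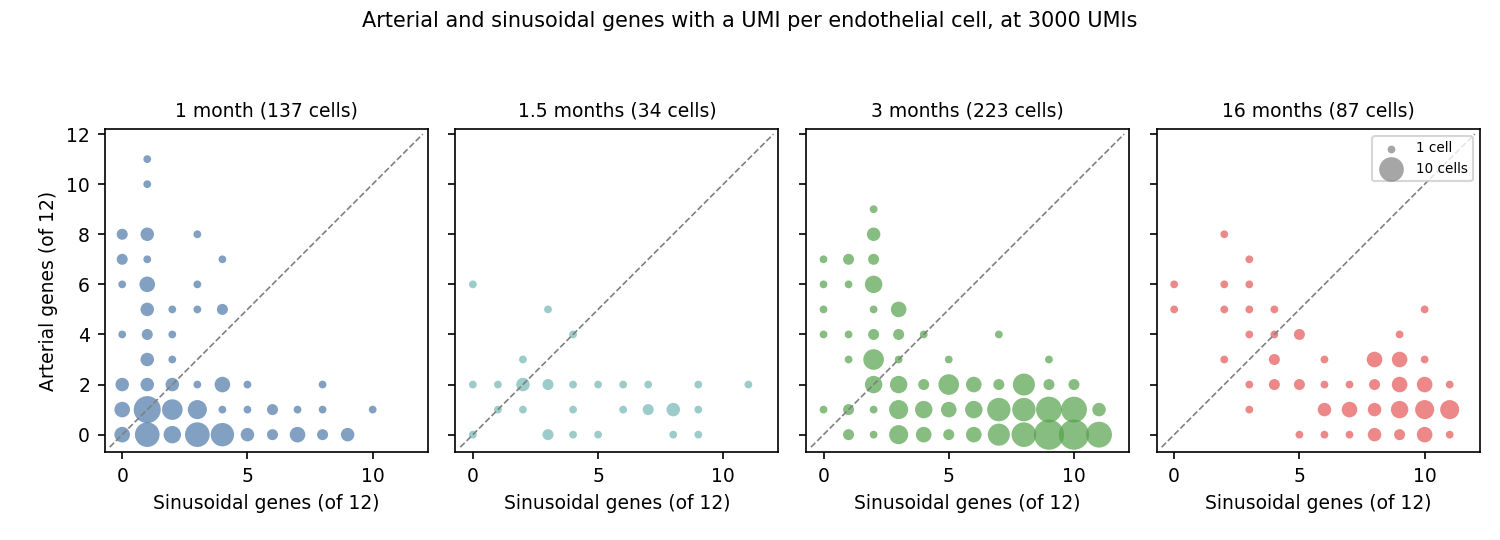
Number of sinusoidal genes (x axis) and arterial genes (y axis) with a UMI per endothelial cell thinned to 3000 UMIs, 1 panel per library, where the area of a point gives the number of cells and the dashed line marks equal numbers. At 1 month 43 of 137 cells lie above the line, and at 16 months 11 of 87.

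Genes outside both lists separated the same cells. The classes were compared at 1 month (43 and 75 cells) and 3 months (37 and 177 cells), where both were large enough, and a gene was named when its level was at least 2-fold apart in the same direction in both, with Poisson intervals that did not overlap. The level in arterial-leaning cells is given first and that in sinusoidal-leaning cells second. Outside the lists, 81 of 2523 genes with at least 50 CPM were higher in arterial-leaning and 61 of 2386 in sinusoidal-leaning cells. Among the former was Edn1, the vasoconstrictor endothelin 1, at 82.3 against 8.91 CPM at 1 month and 154 against 15.5 CPM at 3 months. Mecom, a transcription factor of arterial endothelium, was at 127 against 14.3 CPM at 1 month and 239 against 15.5 CPM at 3 months, and Col18a1, the collagen of vessel basement membranes, at 666 against 96.3 CPM at 1 month and 331 against 35.6 CPM at 3 months. Igfbp3, a binding protein of insulin-like growth factors, was at 833 against 121 CPM at 1 month and 1008 against 131 CPM at 3 months, and Tgfb2 at 79.8 against 8.91 CPM at 1 month and 88.5 against 7.31 CPM at 3 months. Nebl, Car7, Pcsk5, Egfl8, Msx1, S100a4, Map4k3, Aspn and Ltbp4 were named by the same rule. The pericyte gene Rgs5 was there as well, at 59.9 against 8.91 CPM at 1 month and 1967 against 83.1 CPM at 3 months. The smooth muscle gene Acta2 was at 155 against 14.3 CPM at 1 month and 11.5 against 14.6 CPM at 3 months, thus higher in arterial-leaning cells at 1 month alone, and Myh11 at 0 against 0 CPM at 1 month and 34.6 against 1.83 CPM at 3 months. The part of adhering mural cells in these values was not tested.

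Among the 61 genes higher in sinusoidal-leaning cells was F8, coagulation factor VIII, at 2.49 against 103 CPM at 1 month and 3.85 against 149 CPM at 3 months. Mrc1, the mannose receptor, was at 4.99 against 118 CPM at 1 month and 7.7 against 378 CPM at 3 months, and Fcgr2b, an inhibitory receptor for IgG that clears immune complexes, at 0 against 62.4 CPM at 1 month and 23.1 against 348 CPM at 3 months. Ackr1, the chemokine receptor of venules, was at 0 against 102 CPM at 1 month and 3.85 against 276 CPM at 3 months, and Nr2f2, the transcription factor that sets venous identity, at 12.5 against 111 CPM at 1 month and 30.8 against 212 CPM at 3 months. Gpr182 was at 9.98 against 114 CPM at 1 month and 15.4 against 232 CPM at 3 months, and Angptl4, an inhibitor of lipoprotein lipase, at 15 against 358 CPM at 1 month and 30.8 against 576 CPM at 3 months. Ubd, Clca3a1, Gatm, Il13ra2, Cyp4b1, Gm1673 and Abcc9 were named by the same rule. The selectins Selp and Sele, which slow leukocytes on venous walls, were at 2.49 against 107 CPM at 1 month and 100.1 against 324 CPM at 3 months and at 4.99 against 35.7 CPM at 1 month and 3.85 against 73.1 CPM at 3 months. Prox1, the lymphatic transcription factor, stood at 4.99 against 26.7 CPM at 1 month and 11.5 against 32 CPM at 3 months, while Lyve1, Ccl21a and Pdpn, which mark lymphatic vessels, were at 3.16 CPM or less in every library. Mmrn1, a multimerin on the same list of 6 lymphatic genes, was at 13, 44.2, 64.7 and 103 CPM over all members and passed the rule for 16 months given below, at 2.53 times the younger mean, and the list summed to 29.5, 47.4, 92 and 183 CPM. The surface proteins Ly6a and Cd34 were at 1519 against 519 CPM at 1 month and 1459 against 382 CPM at 3 months and at 663 against 485 CPM at 1 month and 550.4 against 167 CPM at 3 months.

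The 3-month library was set against the 1-month library, the only young pair with over 100 members each. A gene passed the rule of size when it was at least 2-fold apart, its Poisson intervals did not overlap, and it reached 100 CPM in either library. Of 1826 genes, 259 (14.2%) passed as higher at 3 months and 113 (6.19%) as lower, and with TMM scaling, which centres the bulk of genes, 224 and 166. All 11 sinusoidal genes with enough signal were higher. The median ratio over all 12 listed genes was 4.47, against 1.01 over all genes tested. Markers of other cells moved in the same direction, with 4 of 4 mural genes (Rgs5, Kcnj8, Abcc9 and Mylk) and 3 of 3 stromal genes (Cxcl12, Adipoq and Lpl) past the rule as higher, and their part in the result was not tested. Stab2 stood at 8.32 times, Dnase1l3 at 9.71 times and Il6st at 8.15 times its 1-month level. Of 5 arterial genes with enough signal, Gja4, Stmn2 and Unc5b passed as lower, at ratios of 0.358, 0.213 and 0.313.

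Lipg (chr18:74939322-74961263, minus strand), the lipase of endothelium, had the largest ratio among genes at least 2-fold higher in endothelial than in other cells of the library where they were highest, with 9.53 (4.76 to 17.1), 37.9 (19.6 to 66.2), 182 (161 to 205) and 330.1 (301 to 361) CPM in the 4 libraries. Each library stood above the one before it. It was followed by Rgs5, Rgs4, Rarres2, Dnase1l3, Fcgr2b, Stab2 and Cyp4b1, with Fcgr2b at 32.1, 69.5, 277 and 294 CPM and Rgs4, a brake on G protein signalling, at 10.4, 183, 171 and 430.1 CPM. Rarres2 was at 15.6, 329, 179.9 and 273 CPM against 30.6, 123, 128 and 626 CPM in other cells, and thus 2-fold higher at 1.5 months alone. The lowest ratios were those of Stmn2, Col18a1, Vim, Unc5b, Gja4, Tubb2a, Anxa2 and Tuba1a, with Col18a1 at 309, 145, 87.2 and 65.1 CPM and Vim, the intermediate filament protein vimentin, at 3693, 1728, 1107 and 1519 CPM. Of these, Vim, Unc5b, Tubb2a, Anxa2 and Tuba1a were 2-fold higher than in other cells at 1 month alone, and entered the ranking through that library. At 3 months they stood at 1.38, 1.11, 0.635, 0.92 and 1.04 times the other cells. Of the 259 genes, 92 (35.5%) were also at least 2-fold higher in neutrophils and 46 (17.8%) in stromal cells of the same libraries, against 7.23% and 3.89% of all genes tested. In none of the other, stromal and neutrophil cells did 120 (46.3%) pass, and that share over all genes tested is not given here. The 113 lower genes include all 6 neutrophil and 5 of the 6 erythroid genes. Cell cycle genes were lower at 3 months, with 4 of 5 past the rule. Top2a, the topoisomerase of dividing cells, was at 128, 53.7, 17.7 and 20.5 CPM and Birc5 at 137, 72.7, 15 and 5.48 CPM. In the other cells Top2a was at 229.7, 35.4, 78.9 and 45.8 CPM, and was thus lower at 3 months than at 1 month there as well.

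At 16 months, 367 of 2346 genes (15.6%) were at least 2-fold higher than the mean of the 3 younger libraries and 316 (13.5%) lower, outside their range and with intervals apart from theirs. The comparison shares the 1- and 3-month libraries with the one above. Much of it was not particular to endothelium. Of the 367 genes, 294 (80.1%) were also at least 2-fold higher in all other cells, 191 (52.0%) in stromal cells and 238 (64.9%) in neutrophils, against 25.6%, 11.0% and 17.9% of all genes tested. The mix of all other cells differed between ages. They held 297 stromal and 2577 neutrophil reference cells of 8171 at 1 month, and 4186 and 343 of 6049 at 16 months. The part of this mix in the ratios of all other cells was not tested. Of the 316 genes, 163 (51.6%) were also at least 2-fold lower in all other cells, against 13.8% of all genes tested. Sbno2, a transcriptional co-regulator, was at 5.2, 31.6, 38.2 and 927 CPM, and at 2.18, 8.53, 5.31 and 182 CPM in other cells. Fbxl7 had 1 UMI in the 3 younger libraries together and 123 CPM at 16 months, and stood at 34.9 CPM in the other cells of that age. Gm20186, Rapgef5, Ccdc88c and Fgf23 were also among the 8 highest under the limit of 2-fold over other cells, and each of these genes was at least 3.87 times higher in all other cells too. Of these, Rapgef5, an exchange factor for Rap, and Fgf23, the phosphate hormone, were near 0 in other cells, at 17.3, 0, 25.9 and 318 CPM and 9.53, 6.32, 17.7 and 175 CPM in the members against 2.44 and 0.72 CPM in the other cells at 16 months. A difference of age and the other gene table of this library cannot be told apart in these values.

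Among genes at least 2-fold higher in endothelial than in other cells of the library where they were highest, the 8 lowest ratios were those of Ccdc85b, Sox11, Cd34, Cdh13, Lxn, Col15a1, Gng11 and Sparcl1. Lxn stood at 4.18, 0.851, 1.09 and 0.961 times the other cells, and was thus 2-fold higher at 1 month alone. Cd34, the sialomucin of blood stem cells and capillaries, was at 568 (526 to 614), 338 (277 to 409), 247 (222 to 273) and 90.4 (75.6 to 107) CPM, each library below the one before, and had a UMI in 89.8, 50, 50.4 and 35.1% of the members. Sox11, a transcription factor of immature cells, was at 101, 114, 56.5 and 8.9 CPM, and Cdh13, T-cadherin, at 148, 88.5, 58.6 and 25.3 CPM. Gng11, a G protein subunit, was at 1688, 1261, 1222 and 405 CPM and Sparcl1, a matrix protein, at 379, 149, 208 and 74 CPM. In the sinusoidal-leaning cells alone Cd34 was at 485, 195, 167 and 66.1 CPM and Gng11 at 2111, 903, 1315 and 390.4 CPM, in the same order as over all members for Cd34.

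A smaller group passed the rule at 16 months in endothelial cells without reaching 2-fold in the others. Of the 367 higher genes, 59 (16.1%) passed 2-fold in neither the other, the stromal nor the neutrophil cells, as did 122 (38.6%) of the 316 lower ones. This split was made after the values were seen. The share of all genes tested that passed in none is not given here, so these counts have no background. Among the higher ones that were also enriched in endothelium, Lipg stood at 4.32, Selp at 4.06, Sele at 3.48 and Mrc1 at 3.49 times the younger mean. In stromal cells the ratios were 0.655 for Lipg, 0.826 for Selp and 0.403 for Mrc1, and Sele had 2 UMIs in all. Selp was at 58.1 (45 to 73.7), 66.4 (41.1 to 101), 285 (259 to 314) and 555 (517 to 594) CPM and Mrc1 at 61.5, 107, 298 and 543 CPM, both higher in each older library. Cxadr, Adgrg6, Rasgef1b, Csf2rb, Abcc9 and Sema3a were in the same group. Of these, Abcc9, which is also on the mural list, stood at 1.99 times in all other cells and Csf2rb at 1.95 times in neutrophils, just under the limit. Of the lower ones, Gng11 stood at 0.292 and Igfbp3 at 0.43 times the younger mean, against 0.748 and 0.948 in stromal cells.

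**Figure D5:**
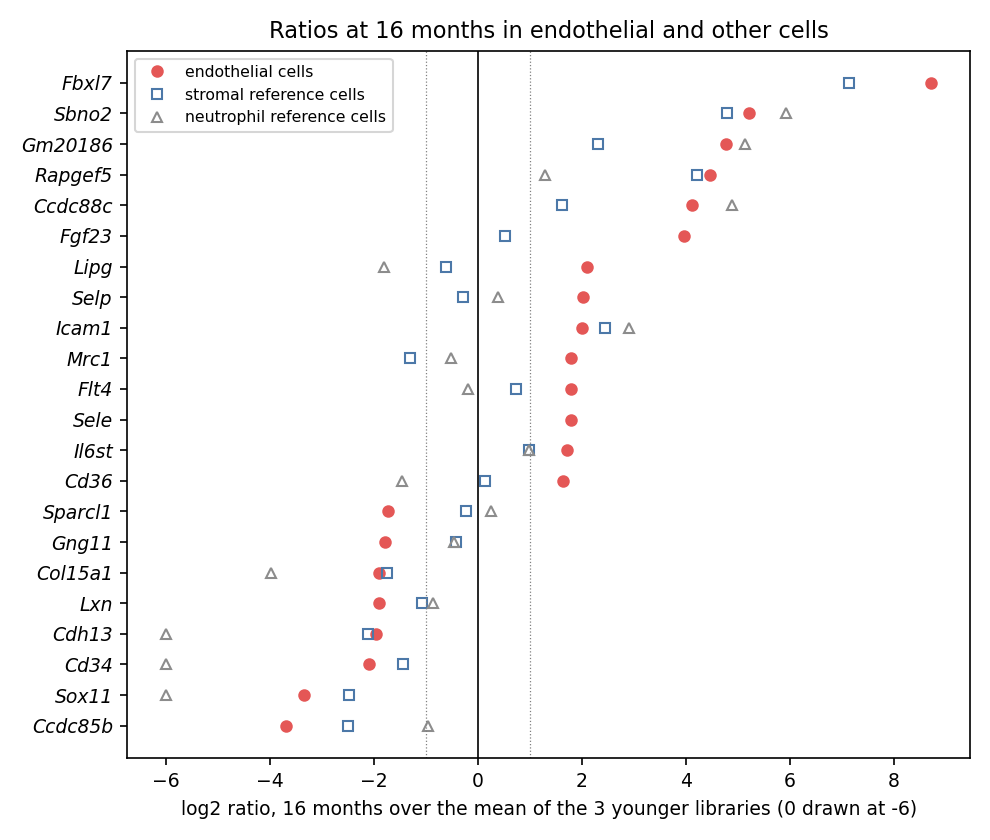
Log2 of the 16-month level divided by the mean level of the younger libraries, in endothelial cells (filled circles), stromal cells (squares) and neutrophils (triangles) for the genes named above for their large or small ratios and 8 others named in the text; points of other cells with under 20 UMIs are left out, a ratio of 0 is drawn at the left edge, and dotted lines mark 2-fold. Sbno2 lies far to the right in all 3 classes, whereas Lipg (4.32 against 0.655 in stromal cells) and Selp (4.06 against 0.826) lie beyond 2-fold in endothelial cells and below 1 in stromal cells.

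Groups of endothelial genes from lists were read in the same way at 16 months. The background over all genes tested was 15.6% higher and 13.5% lower, with a median ratio of 0.920. The median ratio over all 12 sinusoidal genes was 2.48. Of the 11 with enough signal, 7 passed as higher and 0 as lower. These were Flt4, Vcam1, Adamts5, Dnase1l3, Il6st, Tfpi and Maf. In stromal cells they stood at 1.68, 1.86, 1.93, 0.707, 1.99, 1.01 and 2.7 times their younger level. In all other cells the ratios were 2.8, 6.57, 5.16, 0.752, 3.88, 3 and 4.81, so Dnase1l3 alone stayed under 2-fold there. Of 8 arterial genes, Vegfc alone passed as higher and none as lower. Among 18 pan-endothelial genes, Sox18 and Cyyr1 passed as higher and Erg and Ecscr as lower, with Erg at 59.8, 56.9, 109.7 and 24 CPM. Of 6 venular and adhesion genes, Sele, Selp and Icam1 passed as higher and Icam2 as lower. Icam1, the ligand of leukocyte integrins, was at 116, 180.1, 255 and 744 CPM and stood at 5.47 times its younger level in stromal cells, while Icam2, a constant ligand of endothelium, was at 544, 237, 243 and 153 CPM. On the list of endosteal capillary and tip genes, Dll1 passed as higher and Ramp3 as lower of 3 with enough signal, and the tip cell genes Esm1 and Apln were at 110.1, 363, 72.2 and 335 CPM and 66.7, 22.1, 16.4 and 3.42 CPM, with Esm1 at 15.2, 161, 81.9 and 804 CPM in the other cells. On the list of arteriolar surface genes Ly6c1 and Cd34 passed as lower, and Ly6a was at 887, 534, 612 and 401 CPM.

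Receptors for growth factors were present throughout. Of 14, Flt4, Nrp2, Bmpr2 and Plxnd1 passed as higher at 16 months and Aplnr as lower. Nrp1 and Nrp2, co-receptors for VEGF and semaphorins, were at 451, 360.2, 547 and 376 CPM and 251, 126, 292 and 487 CPM, and Nrp2, Bmpr2 and Plxnd1 were also at 1.95, 2.62 and 2.69 times their younger level in stromal cells, against 2.18, 2.6 and 2.57 in the members. Acvrl1, a receptor for BMP9, was at 114, 53.7, 104 and 109.6 CPM and Bmpr2 at 88.4, 75.8, 144 and 267 CPM. Of the Notch genes, the receptor Notch1 was at 71.1, 104, 189 and 260.2 CPM and the target Hes1 at 316, 575, 803 and 615 CPM, and Notch1 and the ligand Dll1 passed as higher. Of the genes that respond to flow, Klf2 was at 1363, 2035, 1487 and 1676 CPM and Klf4 at 757, 1207, 1273 and 2158 CPM, and neither passed. Thbd, thrombomodulin, was at 109, 297, 475 and 565 CPM. Piezo1, the stretch-gated channel, passed as higher and Cav1, the protein of caveolae, as lower, with Cav1 at 350.1, 174, 157 and 87 CPM.

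Of 8 genes of fatty acid handling, 3 had at least 50 CPM in every library, and 2 of these were at least 2-fold higher than in other cells throughout. Without that limit on level, 4, 5, 5 and 5 of the 8 were at least 2-fold higher in the 4 libraries. Fabp4, a fatty acid binding protein, was at 2642 (2549 to 2738), 2879 (2695 to 3072), 5408 (5289.7 to 5528) and 7543 (7403 to 7685) CPM, against 30.2, 15.1, 55.8 and 119 CPM in all other cells, and had a UMI in 66.4, 70.6, 95 and 98.9% of the members. Cd36, the fatty acid transporter, was at 29.5, 117, 161 and 319.8 CPM. Both passed as higher at 3 months over 1 month, where Fabp5 passed as lower at a ratio of 0.401, and both passed the rule at 16 months, at 2.07 and 3.12 times the younger mean. In stromal cells the ratio was 3.49 for Fabp4 and 1.1 for Cd36. Gpihbp1 did not pass, and Car4 and Meox2, which mark capillaries of other tissues, were at 12.6 CPM or less in every library. The interferon-stimulated list had no gene past the rule among 3 with enough signal, with Ifitm3 at 2108, 2307, 2216 and 1400.4 CPM. Of the class I antigen presentation genes, H2-K1 and H2-Q4 passed as higher, at 2.09 and 2.33 times the younger mean, and stood at 1.6 and 2.25 times in stromal cells. Cd74, of class II, was at 104, 31.6, 222 and 64.4 CPM, against 787, 47, 1688 and 132 CPM in the other cells, and Ciita, which switches class II on, had no UMI in the members of any library.

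Signals that endothelium can give to marrow cells were mixed with those of stroma. Cxcl12, which retains blood stem cells, was at 618, 7998, 2208 and 7821 CPM in the members and at 12402, 19489, 20154 and 24071 CPM in stromal cells, and Kitl, the stem cell factor, at 93.6, 319, 122 and 538 CPM and 418, 523, 642 and 1519 CPM. Both were highest in the libraries in which 58.8% and 48.9% of the members carried at least 4 stromal genes, and the part of stromal RNA in them was not tested. Csf3, the granulocyte growth factor, was at 7.8, 79, 55.2 and 209 CPM in the members and at 0.24, 0.0667, 0.482 and 0.613 CPM in the other cells, and was thus higher in the members in each library. Of 9 such genes with enough signal, Kitl, Csf3, Csf1, Bmp4 and Bmp6 passed as higher at 16 months and Igfbp3 as lower. Csf1, Bmp4 and Bmp6 were also higher in the other cells of that library (418, 200.4 and 209 CPM). Pdgfb, which recruits pericytes, was at 52.9, 28.4, 60.6 and 63.7 CPM. Of the basement membrane genes, Col4a1 was at 882, 619, 701 and 629 CPM and Nid1 at 109, 193, 244 and 405 CPM. Nid1 passed as higher at 16 months, at 2.22 times the younger mean against 2.44 in stromal cells. Sparc passed as lower, at 8248, 6838, 6050.5 and 2998 CPM and 0.426 times the younger mean, against 0.5 in stromal cells and 0.256 in neutrophils.

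The immediate early and heat shock genes respond within minutes to handling as well as to signals. Of 12, Fosb, Egr1, Zfp36, Hspa1a and Hspa1b passed as higher at 16 months. Egr1 was at 283, 711, 1166 and 2145 CPM in the members and at 98.3, 446, 363 and 1999 CPM in the other cells, and Hspa1b at 9.53, 19, 91.3 and 429 CPM and 3.19, 13.8, 17.2 and 137 CPM. Both genes were highest at 16 months in both kinds of cell. Of the senescence-associated genes, Igfbp5 passed as higher, at 2.78 times the younger mean, with a stromal ratio of 2.75. Cdkn2a was at 6.07, 15.8, 3.41 and 3.42 CPM, and Cdkn1a, which encodes p21, at 434, 1014, 858 and 948 CPM.

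The reporter that the sort was set on was read in the same cells. Its transcript, tomato, was at 4142, 4686, 4402 and 1754 CPM in the endothelial cells, at 2644, 2976, 3004 and 4099 CPM in all other cells and at 2832, 2920.2, 2705 and 665 CPM in neutrophils, and it had a UMI in 100, 100, 100 and 92.6% of the members. Members therefore held more of it than neutrophils in every library. At 16 months they held less than the other cells, and in the younger libraries more. At 3000 UMIs per cell, 99.6, 96.2, 98.4 and 53.5% of the neutrophils had a UMI of it as well, and whether they made it was not tested.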

How the data were processed

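The authors sorted Td+ endosteal bone marrow cells, made 1 10x Genomics library per age, and deposited the raw UMI counts per gene and barcode for each library, without normalization and before any filter on cells. Per the submitters' processing notes, counts were made with Cell Ranger 3.0.2 on mm10 and analysed with Seurat 2. The tables held 8417, 5745, 4516 and 9229 barcodes and 108227184, 63258961, 32672631 and 93269331 UMIs at 1, 1.5, 3 and 16 months. The strand setting of the counting was not given in the sources used here.

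The limits on cells were those of the study (200 to 6000 genes, mitochondrial UMIs up to 5%), and no doublets were removed. At 3 and 16 months these limits left 4180 and 6143 cells, fewer than the study counts after its own filter, so that the cells kept here are not the same as its cells at these ages. Counts were summed per library and cell class over the 26600 genes of all 4 tables, and CPM was the sum of a gene per 1000000 UMIs, with exact 95% Poisson intervals. Shares have Clopper-Pearson intervals. These intervals cover the error of counting alone, and with 1 library per age no test between ages was made. Levels were not compared between genes. The other cells of a library served as reference, as did neutrophils (at least 5% of UMIs from 6 neutrophil genes), stromal cells (at least 4 of 5 genes) and mural cells (at least 3 of 6 genes). Reference classes of this kind depend on depth. At 1.5 months the neutrophil reference held 26 cells.

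Named genes were all genes of the arterial and sinusoidal lists and the 5 markers. The 15 with the largest ratio over other cells among genes with at least 50 CPM were named as well. So were the 8 highest and 8 lowest ratios at 16 months and at 3 over 1 month. These were taken among genes at least 2-fold higher than in other cells of the library where they were highest. On other lists, genes with the highest level or past 2-fold were named. Genes that were given for a role or for a contrast with other cells, such as Ly6a, Prox1 and Cdkn2a, were chosen after their values were seen. A few genes that these rules select are not reported here. The members, the lists and the rules were chosen with earlier results of these data known. The rule for ages was tested on simulated counts with 200 changed genes, which cannot show how much real libraries of 1 age vary. Tools were Python 3.11.15, numpy 2.4.6, scipy 1.17.1, pandas 2.3.3, scanpy 1.11.5 (with Scrublet) and matplotlib 3.10.9. Gene positions are those of GENCODE M21 on GRCm38, and promoters those of RefSeq on GRCm38.p6.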

Additional observations from a re-analysis of the deposited data

Results flagged for a closer look

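Barcodes that the filter removed held endothelial transcripts, which none of the comparisons used. At 3 months 10 such barcodes had at least 3 of the 5 markers and no Ptprc, with a median of 3755 UMIs and 5.74% mitochondrial UMIs. At 16 months there were 178, more than the 94 members, with a median of 17340 UMIs and 5.83% mitochondrial UMIs. Per 1000000 UMIs without the mitochondrial ones, the removed barcodes at 16 months had Cdh5 at 869.6 and Kdr at 1028, against 862 and 852 in the members. Arterial genes held 8.59% (8.31 to 8.88) of their UMIs of both lists, against 12.1% in the members, and 8.74% (6.06 to 12.1) in the 10 barcodes at 3 months.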

How the results depend on the processing

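Of 99 values recomputed for the shares, counts and ratios under the alternatives, 86 stayed within their interval or within 1.5 times, and 13 moved. The share of endothelial cells was 2.06% at 1 month and 2.03% at 16 months with at least 2 markers, 2.23% at 1 month without the Ptprc limit, and 2.63% and 2.72% at 16 months with mitochondrial limits of 10% and 30%. With at least 10 CPM in place of 50 CPM, 650 genes in place of 285 were 2-fold higher than in other cells, as more genes were then tested. The arterial share as a mean over cells was 39.6% at 1 month, 9.87% at 3 months and 10.4% at 16 months. Without members that carried at least 4 stromal genes it was 28.0% at 1.5 months and 9.16% at 16 months, with 35.7% of cells leaning arterial at 1.5 months, and with wide limits on cells it was 9.56% at 16 months, and in both the order of 3 and 16 months turned round. The cause of these moves was not tested. The 16-month counts lay between 318 and 499 higher and between 267 and 415 lower genes, and without the 1.5-month library they were 436 and 332. Of 128 ratios of the 16 named genes 5 moved and 0 reversed. The 3 over 1 month counts with TMM scaling were 224 and 166. Removal of doublets left each of these values within its interval or within 1.5 times. After the new thinning made for it, the interval of arterial-leaning cells at 16 months overlapped that at 1 month. Scrublet called 0.179% of the 16-month cells and did not work there, against 1.46 to 2.62% elsewhere. Limits on cells to 30%, the removal of cells with stromal genes and the 3 over 1 month comparison were chosen after the data were seen. No paired analysis was possible because each age has 1 library. Depth limits genes under 100 CPM, which were left out of the counts of genes past the rule.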
